A study of Mus musculus with 20 samples.

Results

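The joins examined here are the TCRβ rearrangements of mouse CD8 T cells that use a gene of the TRBJ2 cluster, namely TRBJ2-1, TRBJ2-2, TRBJ2-3, TRBJ2-4, TRBJ2-5 or TRBJ2-7. A clonotype was 1 combination of TRBV gene, TRBJ gene and CDR3β amino acid sequence, read in frame and without a stop codon, and it was counted once per mouse however many reads it had. Of 250159 such clonotypes in 17 mice, 176914 used a TRBJ2 gene, which is 70.7%, and the other 73245 used a TRBJ1 gene. TRBJ2-7 held 56369 of them, TRBJ2-1 33668, TRBJ2-5 28544, TRBJ2-3 22925, TRBJ2-4 22220 and TRBJ2-2 13188.

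The study asked how the proteasome subunits used by thymic cells that present self peptides shape CD8 T cells. Male mice aged 9 to 12 weeks on the C57BL/6 background gave TCRβ-high CD4-CD8+ T cells, sorted out of lymph node and spleen, and their TCRα and TCRβ transcripts were amplified and sequenced. The labels name lymph nodes alone as the tissue, and amplicon libraries hold no other genes, so the sorted cell type could not be checked against markers.

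The mice fall into 4 groups. WT mice carry the normal alleles (replicates 1 to 4). β5i-KO mice (replicates 1 to 5) lack Psmb8, which encodes the immunoproteasome subunit β5i. β5t-KO mice (replicates 1 to 4) lack Psmb11, which encodes the thymoproteasome subunit β5t, a protein normally limited to cortical thymic epithelial cells. BIT mice (replicates 1, 2, 4 and 5) carry the β5t coding sequence in place of β5i at Psmb8. They therefore make β5t in cells that normally make β5i, and they lack β5i itself, as β5i-KO mice do. The study mostly used 1 of several BIT lines, and the labels do not say which line these mice came from. WT replicate 5, β5t-KO replicate 5 and BIT replicate 3 were left out, and together they held 413 in-frame clonotypes.

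The 17 libraries held between 614169 and 2856711 reads from 8119 to 146469 distinct molecules, counted by molecular identifiers, and between 277 and 27509 TRBJ2 clonotypes (median 7147). Clonotypes seen as a single molecule made up 4.87% to 68.2% of the TRBJ2 clonotypes of a library. β5t-KO replicate 2 held the fewest TRBJ2 clonotypes, 277, followed by WT replicate 1 with 648. Its 1492332 reads were above the median library, and its 8119 molecules were close to the 8381 of WT replicate 1. Results that rest on β5t-KO replicate 2 are given with and without it. Between pairs of libraries the median share of TRBJ2 nucleotide clonotypes held in common was 1.40% for the 28 pairs within a genotype and 1.54% for the 108 pairs across genotypes.

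A TCRβ chain is built by joining a TRBD to a TRBJ segment and then a TRBV segment to the product. The RAG recombinase cuts at recombination signal sequences that flank each segment, nucleases remove bases from the opened ends, short palindromic (P) bases can remain, and terminal deoxynucleotidyl transferase adds untemplated N bases. The locus holds 2 clusters in a row, each with 1 TRBD segment, its TRBJ segments and a constant gene. TRBD1 can join TRBJ segments of either cluster, while TRBD2 lies downstream of all TRBJ1 segments and normally joins TRBJ2 only.

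The germline segments are shown because they fix how many residues of the CDR3β each TRBJ2 gene can supply. All lie on the plus strand of chromosome 6 in GRCm39 and are annotated as TR_J_gene, each a single coding segment upstream of Trbc2. TRBJ2-1 lies at chr6:41519688-41519737, TRBJ2-2 at chr6:41519891-41519941, TRBJ2-3 at chr6:41520157-41520205, TRBJ2-4 at chr6:41520296-41520344, TRBJ2-5 at chr6:41520387-41520435 and TRBJ2-7 at chr6:41520744-41520790. They begin between 577 bases (TRBJ2-1) and 1633 bases (TRBJ2-7) downstream of the end of TRBD2. Capitals mark the bases that belong to the CDR3, up to and including the codon of the conserved phenylalanine.

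TRBJ2-1: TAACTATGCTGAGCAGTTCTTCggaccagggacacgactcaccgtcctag
TRBJ2-2: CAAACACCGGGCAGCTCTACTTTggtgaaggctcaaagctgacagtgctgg
TRBJ2-3: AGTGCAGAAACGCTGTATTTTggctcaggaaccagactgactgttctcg
TRBJ2-4: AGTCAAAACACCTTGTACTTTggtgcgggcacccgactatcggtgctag
TRBJ2-5: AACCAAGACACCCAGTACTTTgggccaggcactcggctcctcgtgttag
TRBJ2-7: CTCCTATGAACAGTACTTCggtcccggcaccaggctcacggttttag

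TRBJ2-2 brings the most CDR3 bases, 23, and TRBJ2-7 the fewest, 19. TRBJ2-1 has 22, and TRBJ2-3, TRBJ2-4 and TRBJ2-5 have 21 each. The J part of the deposited CDR3 sequences matched these germline bases in 96.0% (TRBJ2-2) to 97.8% (TRBJ2-1) of the clones of each gene. TRBJ2-6, annotated as TR_J_pseudogene between TRBJ2-5 and TRBJ2-7, was called in 1 clone and in no in-frame clone.

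The recombination signal in front of each segment is shown because it is what RAG cuts beside. Capitals mark the nonamer at the left and the heptamer at the right of a spacer of 12 bases, and the last base of each window is next to the coding segment.

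TRBJ2-1 signal: GAATTCTTGgtagcccttttcTGCTGTG
TRBJ2-2 signal: GGTTTGTGCcagcatttccagGACTGTG
TRBJ2-3 signal: AGTTTTTGTcctgagcctggaGGCTGTG
TRBJ2-4 signal: AGTTTTTGTcctgtaccaagaGGCTGTG
TRBJ2-5 signal: AGTTTTTGTgttgggttctggGGCTGTG
TRBJ2-7 signal: GGTTTGTGTgtggggttgagcCTCTGTG

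Compared letter by letter, on this strand, with the consensus nonamer GGTTTTTGT and heptamer CACTGTG, TRBJ2-3, TRBJ2-4, TRBJ2-5 and TRBJ2-7 matched the nonamer at 8 of 9 positions, TRBJ2-2 at 7 and TRBJ2-1 at 4. Heptamers matched at 5 or 6 of 7 positions. Of the 14 TRBJ windows of the locus, 0 held the exact nonamer and 1, that of TRBJ1-1, the exact heptamer. These matches describe letters and measure no cutting.

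The 6 genes were used unequally, in an order that few mice departed from. TRBJ2-7 took 22.4% ± 1.14 of all in-frame clonotypes (mean ± SD, n = 17 mice), TRBJ2-1 13.7% ± 1.01, TRBJ2-5 11.4% ± 0.759, TRBJ2-3 9.17% ± 0.660, TRBJ2-4 8.85% ± 0.416 and TRBJ2-2 5.33% ± 0.355. The most used gene is thus the one nearest the constant gene, and the least used is the second of the cluster. Neighbours in this order differed within mice (permutation test by sign flips, two-sided, 100000 resamples, Benjamini-Hochberg over 15 pairs, adjusted p 0.00012 to 0.000171), in 17 of 17 mice for each pair except TRBJ2-1 over TRBJ2-5, which held in 16 of 17. TRBJ2-3 and TRBJ2-4 did not differ beyond their spread, at 0.323 percentage points apart, TRBJ2-3 higher in 10 of 17 mice and adjusted p = 0.198.

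**Figure D1:**
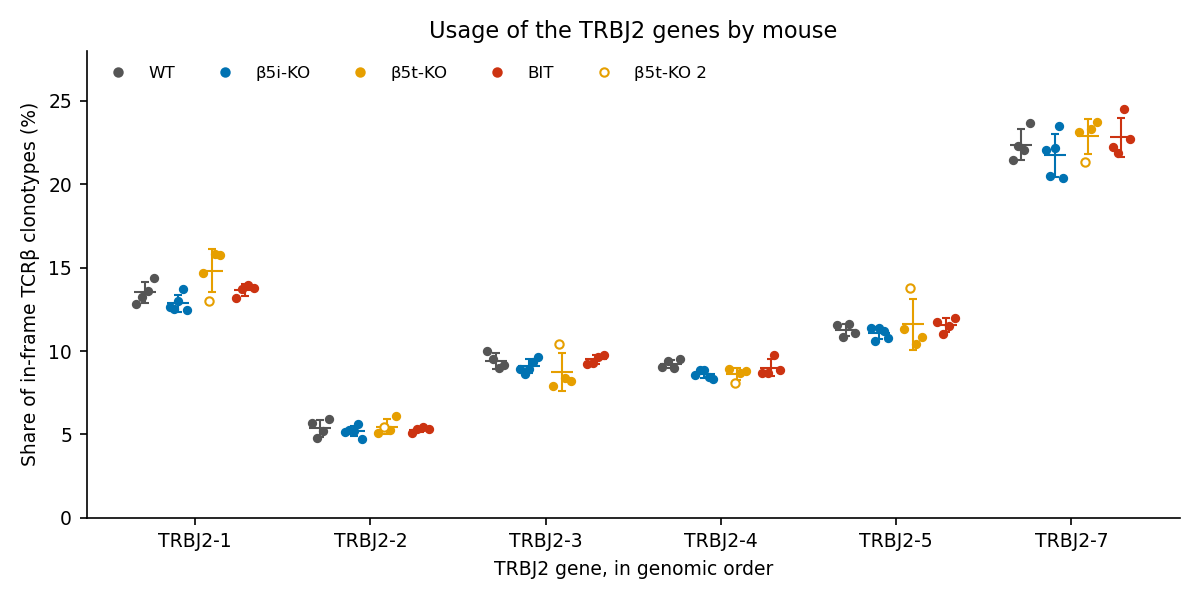
Share of each mouse's in-frame TCRβ clonotypes (%) that used each TRBJ2 gene, in genomic order, 1 point per mouse coloured by genotype, with the group mean and SD as horizontal and vertical bars and β5t-KO replicate 2 as the open circle. TRBJ2-7 lies between 20.4% and 24.5% in every mouse, above every value of every other TRBJ2 gene.

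Summed over the cluster, no difference in TRBJ2 share between genotypes passed the test. It was 70.5%, 70.1%, 70.4% and 73.6% in the WT mice, and 68.7%, 66.4%, 69.6%, 71.8% and 66.4% in the β5i-KO mice. It was 71.1%, 72.1%, 71.8% and 73.4% in the β5t-KO mice and 70.1%, 69.9%, 74.8% and 72.4% in the BIT mice. The β5i-KO mice held the lowest values, with a mean of 68.6% ± 2.31 (n = 5) against 71.2% ± 1.66 in WT (n = 4), and all groups overlapped. In 5 comparisons by exact two-sided permutation tests of means (β5i-KO, β5t-KO and BIT each against WT, and BIT against β5i-KO and β5t-KO), adjusted p was between 0.317 and 0.8, with the lowest unadjusted p, 0.0794, for BIT over β5i-KO. These comparisons share control mice, and the smallest p an exact test allows is 0.0286 for 4 against 4 mice and 0.0159 for 4 against 5. Replicate 4 held the highest share in every genotype, and these tests take no account of replicate numbers. With replicate number as a block in a linear model, given below, β5i-KO against WT and BIT against β5i-KO passed the threshold.

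Gene by gene, edgeR's quasi-likelihood test on clonotypes per TRBJ gene called 2 of the 12 tested TRBJ genes (16.7%) between BIT and β5t-KO, and both were TRBJ2 genes. TRBJ2-1 was lower in BIT mice. Its share was 13.2%, 13.7%, 13.96% and 13.8% in the BIT mice and 14.7%, 13.02%, 15.8% and 15.7% in the β5t-KO mice. The BIT values lie close together, and β5t-KO replicate 2 lies below all of them while the other β5t-KO mice lie above. The log2 fold change was -0.16 ± 0.049 (SE), with an edgeR adjusted p of 0.0157, and -0.17 with adjusted p = 0.00671 without β5t-KO replicate 2. The TRBJ2-1 call was lost without β5t-KO replicate 3 (log2 fold change -0.12, adjusted p = 0.233), β5t-KO replicate 4 (adjusted p = 0.0741) or BIT replicate 1 (adjusted p = 0.0699).

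TRBJ2-3 was higher in BIT mice. It took 9.25%, 9.28%, 9.65% and 9.79% of BIT clonotypes and 7.89%, 10.4%, 8.39% and 8.21% of those of the β5t-KO mice. Here too β5t-KO replicate 2 was the exception, above all BIT mice. The log2 fold change was 0.20 ± 0.058, with an edgeR adjusted p of 0.0142, and 0.22 with adjusted p = 0.00394 without that mouse. The TRBJ2-3 call was lost without β5t-KO replicate 1 (adjusted p = 0.155) or replicate 3 (adjusted p = 0.0523). Under TMM normalisation neither gene was called, with log2 fold changes of similar size (-0.17 for TRBJ2-1 and 0.19 for TRBJ2-3, edgeR adjusted p = 0.0661 for both). When unique molecules were counted in place of clonotypes, the log2 fold change was -0.15 for TRBJ2-1 (edgeR adjusted p = 0.222) and 0.05 for TRBJ2-3 (edgeR adjusted p = 0.861).

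Against WT, edgeR called 0% of the 12 TRBJ genes for β5i-KO, β5t-KO or BIT mice, with 2, 2 and 0 of the 6 TRBJ2 genes at an unadjusted p under 0.05. Over all 12 TRBJ genes the counts were 4, 3 and 0. TRBJ2-1 was 12.8%, 13.3%, 13.6% and 14.4% in WT, so that 3 of the 4 β5t-KO mice lay above all WT mice and replicate 2 near the lowest of them. The β5t-KO over WT log2 fold change was 0.15 ± 0.053 for TRBJ2-1 (edgeR adjusted p = 0.0865) and -0.16 ± 0.063 for TRBJ2-3 (edgeR adjusted p = 0.0873). Both passed the threshold without β5t-KO replicate 2 (edgeR adjusted p = 0.0270 each), and TRBJ2-1 also without WT replicate 4 (adjusted p = 0.0317) and with replicate number as a block (adjusted p = 0.00101). Every other mouse left out gave no call, with adjusted p up to 0.313 for TRBJ2-1 (without β5t-KO replicate 3) and 0.447 for TRBJ2-3 (without β5t-KO replicate 1). Counting unique molecules gave log2 fold changes of 0.19 for TRBJ2-1 (edgeR adjusted p = 0.0530) and -0.02 for TRBJ2-3 (edgeR adjusted p = 0.953). Without β5t-KO replicate 2, the remaining 3 β5t-KO mice averaged 15.4% ± 0.610 for TRBJ2-1 and 8.16% ± 0.255 for TRBJ2-3.

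TRBJ2-4, named after its values were seen, was not called, but its shares did not overlap between groups in 2 comparisons. It was the 1 gene of the 12 TRBJ genes without overlap in each of them, and in the other 3 comparisons all 12 overlapped. WT mice held 8.97% to 9.50%, above the 8.34% to 8.88% of β5i-KO mice (edgeR adjusted p = 0.127) and the 8.07% to 8.92% of β5t-KO mice (edgeR adjusted p = 0.616). Between BIT and β5i-KO, edgeR called 16.7% of the TRBJ genes and none of the TRBJ2 genes, of which 1 had an unadjusted p under 0.05, beside 4 of all 12 TRBJ genes. The median log2 fold change of the 6 TRBJ2 genes, beside that of all 12 TRBJ genes, was -0.05 against 0.00 for β5i-KO over WT, -0.03 and -0.03 for β5t-KO over WT, 0.00 and -0.01 for BIT over WT, 0.06 and -0.03 for BIT over β5i-KO, and 0.01 and 0.01 for BIT over β5t-KO.

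Over the 17 mice, the gene whose share ran most alike that of TRBJ2-1 was TRBJ2-7 (Spearman's rho 0.848, Pearson's r 0.747, and r 0.794 without the 2 mice farthest from the median TRBJ2-1 share). The most opposed was TRBJ1-4 for both (rho -0.885 with TRBJ2-1 and -0.873 with TRBJ2-7). For TRBJ2-5 the most alike was TRBJ2-3 at rho 0.485, for TRBJ2-2 TRBV29 at 0.581, for TRBJ2-3 TRBV30 at 0.613 and for TRBJ2-4 TRBV23 at 0.426. These are descriptions, since shares of 1 total move against each other and the libraries differ in depth.

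The TRBJ2 genes gave CDR3β loops of different mean length, and the order followed the number of J bases they kept. Mean CDR3β length, in residues, was 14.7 ± 0.086 for TRBJ2-2 (SD, n = 17 mice), 14.7 ± 0.082 for TRBJ2-3, 14.2 for TRBJ2-4 and TRBJ2-1, 14.05 for TRBJ2-5 and 13.2 ± 0.045 for TRBJ2-7. TRBJ2-7 joins were shorter than TRBJ2-5 joins by 0.856 residues in 17 of 17 mice. In the same family of permutation tests, TRBJ2-2 and TRBJ2-3 were not told apart (difference 0.0438, adjusted p = 0.416), nor were TRBJ2-4 and TRBJ2-1 (0.0198, adjusted p = 0.638), and the other neighbours differed at adjusted p of at most 0.000171.

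Nuclease trimming at the J end followed a different order from length. On average 3.77 of the germline bases were missing from TRBJ2-7, 3.34 from TRBJ2-1, 2.91 from TRBJ2-5, 2.16 from TRBJ2-4, 2.12 from TRBJ2-2 and 1.34 from TRBJ2-3. TRBJ2-4 and TRBJ2-2 did not differ (adjusted p = 0.612 over 10 pairs), and every other neighbouring pair did (permutation test, adjusted p of at most 0.00016). The J bases left in the CDR3 therefore ranged from 15.7 for TRBJ2-7, which is both the shortest and the most trimmed, to 21.1 for TRBJ2-2.

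The J segment was left whole in 49.9% of TRBJ2-3 clonotypes, 40.1% of TRBJ2-4, 29.5% of TRBJ2-2, 21.2% of TRBJ2-5, 19.7% of TRBJ2-7 and 13.3% of TRBJ2-1. A base that could be a P base, read as the complement of the first J base beside an untrimmed end, was called in 36.4% of TRBJ2-3 and 5.63% of TRBJ2-1 clonotypes. Such a base cannot be told from an N base of the same letter. The stretch between the V and J parts varied less, from 9.14 bases for TRBJ2-2 to 9.88 for TRBJ2-1.

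**Figure D2:**
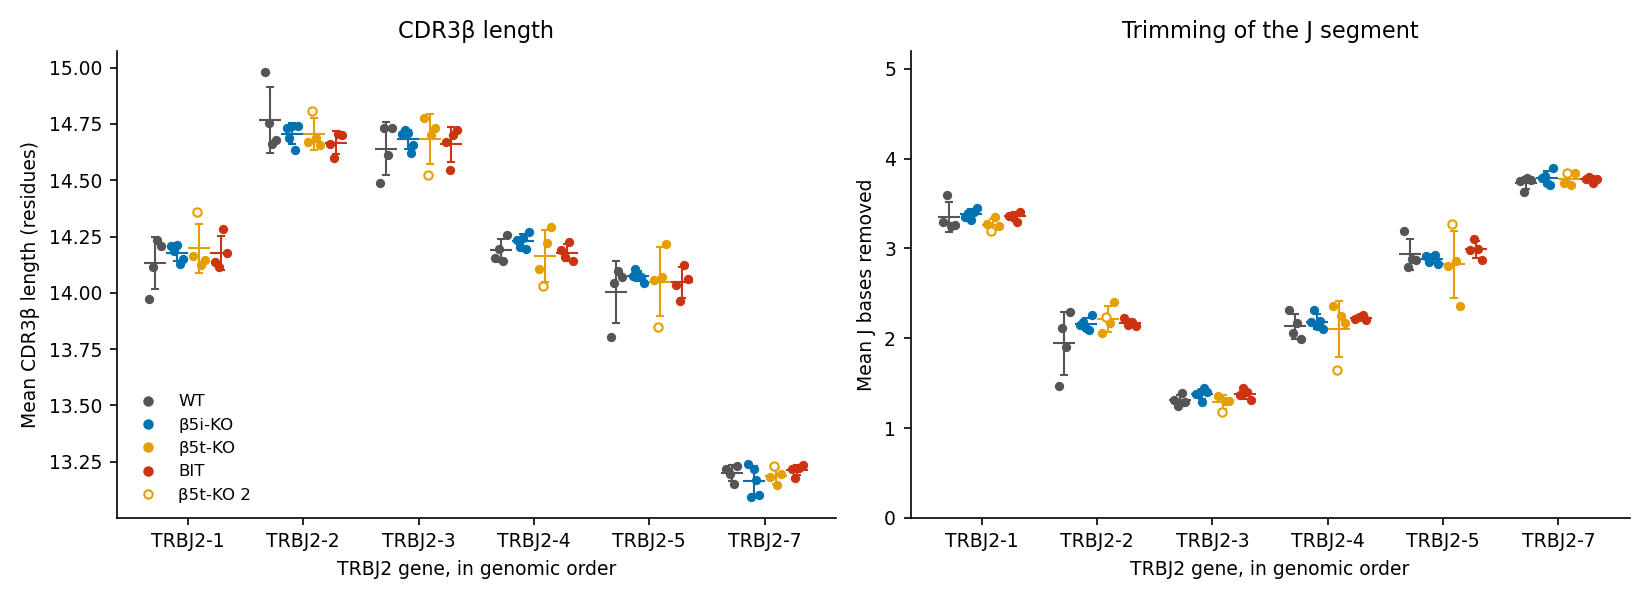
Mean CDR3β length in residues (left) and mean number of germline J bases removed (right) per mouse for each TRBJ2 gene, 1 point per mouse by genotype with group mean and SD, and β5t-KO replicate 2 as the open circle; the length axis does not start at 0. TRBJ2-7 has the shortest loops, averaging 13.2 residues, and TRBJ2-3 the least trimming, averaging 1.34 bases.

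No difference in length between genotypes passed the test. Over all TRBJ2 clonotypes WT mice averaged 13.94 ± 0.0365 residues, β5i-KO mice 13.95 ± 0.0276, β5t-KO mice 13.94 ± 0.0258 and BIT mice 13.95 ± 0.0391, and the differences between the groups compared were at most 0.0128 residues (exact permutation tests, adjusted p = 0.943 in all 5 comparisons). Gene by gene, limma called 0% of the 12 TRBJ genes in each comparison, and the lowest unadjusted p among TRBJ2 genes was 0.113, for TRBJ2-2 in BIT against WT, with a difference of -0.102 residues. J trimming was not tested between genotypes. Over all TRBJ2 clonotypes it was 2.848 to 2.886 bases in WT mice and 2.922 to 2.975 in BIT mice, without overlap. It was 2.886 to 2.934 in β5i-KO and 2.876 to 2.939 in β5t-KO mice. In TRBJ1 joins the WT and BIT values overlapped. These ranges were chosen after the values were seen.

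Mean N addition lay between 2.38 and 2.56 bases across the cluster, and only neighbours in that order were tested against each other. N bases were counted between V and D and between D and J in the 78.7% of TRBJ2 nucleotide clonotypes in which a D segment was found. Their mean number per clonotype was 2.56 ± 0.119 for TRBJ2-7 (SD, n = 17 mice), 2.54 ± 0.151 for TRBJ2-4, 2.44 ± 0.0759 for TRBJ2-3, 2.43 ± 0.0993 for TRBJ2-5, 2.42 ± 0.287 for TRBJ2-2 and 2.38 ± 0.254 for TRBJ2-1. Only TRBJ2-4 and TRBJ2-3 differed among neighbours, by 0.0963 bases, in 12 of 17 mice (permutation test, adjusted p = 0.0331). At the D–J junction TRBJ2-7 carried 1.36 N bases and TRBJ2-1 1.19, and at the V–D junction the genes lay between 1.19 and 1.25. Differences at the single junctions were not tested.

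By genotype, N addition over all TRBJ2 clonotypes was lowest in β5t-KO mice, but no difference passed the permutation test. It was 2.43, 2.53, 2.45 and 2.55 bases in the WT mice, and 2.56, 2.51, 2.55, 2.51 and 2.56 in the β5i-KO mice. It was 2.27, 2.34, 2.33 and 2.48 in the β5t-KO mice and 2.50, 2.43, 2.56 and 2.51 in the BIT mice. β5t-KO replicates 1 to 3 lay below all other mice and replicate 4 within their range. By exact permutation tests, β5t-KO differed by -0.134 bases from WT and BIT by 0.140 from β5t-KO (adjusted p = 0.212 for each), and adjusted p over the 5 comparisons lay between 0.212 and 0.914. With replicate number as a block in a linear model, given below, both of these differences passed the threshold. Split by junction after the values were seen, V–D N bases of TRBJ2 joins were 1.077 to 1.175 in β5t-KO mice. They were higher in all other mice, at 1.204 to 1.276 in WT, 1.233 to 1.269 in β5i-KO and 1.198 to 1.266 in BIT mice. At the D–J junction, and at the V–D junction of TRBJ1 joins, β5t-KO mice overlapped the other groups. The junctions were not tested between genotypes.

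Gene by gene, limma called 16.7% of the TRBJ genes for N addition in β5t-KO against WT, 1 of them the TRBJ2 gene TRBJ2-2. Its joins carried 2.15, 1.71, 2.48 and 1.98 N bases in the β5t-KO mice and 2.49, 2.91, 2.29 and 2.57 in the WT mice, which overlap through β5t-KO replicate 3. The β5t-KO minus WT difference was -0.487 ± 0.147 bases (SE, limma adjusted p = 0.0401). The lowest value, that of β5t-KO replicate 2, rests on 17 TRBJ2-2 clonotypes with a D segment, and without that mouse the difference was -0.364 (limma adjusted p = 0.132). The call held on leaving out 6 of the 17 mice and was lost on leaving out any of the other 11, namely WT replicates 1, 2 and 4, β5i-KO replicates 1 and 3, β5t-KO replicates 1, 2 and 4, and BIT replicates 2, 4 and 5 (limma adjusted p 0.0504 to 0.132). Weighted by the number of clonotypes behind each mean, the TRBJ2-2 difference was -0.252 (limma adjusted p = 0.211), while TRBJ2-1 (-0.217, limma adjusted p = 0.0224) and TRBJ2-7 (-0.228, limma adjusted p = 0.00244) passed the test. In the other 4 comparisons the unweighted fit called 0% of the genes.

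**Figure D3:**
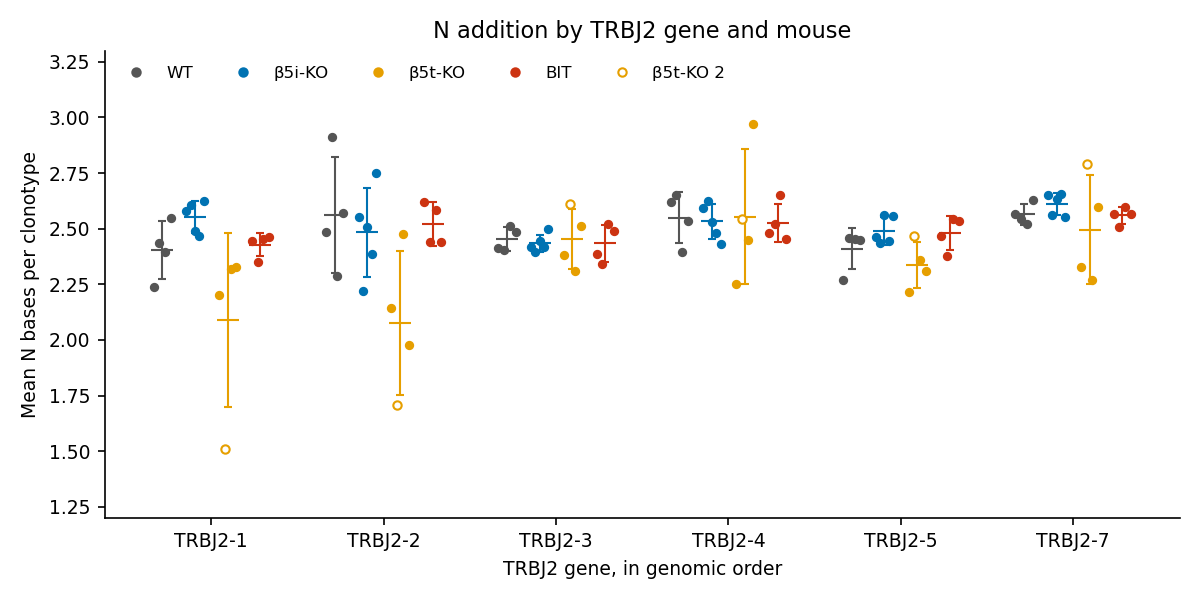
Mean number of N bases per clonotype with a D segment, for each TRBJ2 gene and mouse, coloured by genotype, with group mean and SD; the axis runs from 1.2 to 3.3 bases and the open circle is β5t-KO replicate 2. Most values lie between 2.2 and 2.8, and the lowest, 1.51 for TRBJ2-1 and 1.71 for TRBJ2-2, both belong to β5t-KO replicate 2.

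The D segment joined to TRBJ2 was more often called TRBD2 than TRBD1, with TRBJ2-2 the lowest of the 6 genes. Among clonotypes with a D segment, TRBD2 was assigned in 61.3% of TRBJ2-4, 60.2% of TRBJ2-3, 59.5% of TRBJ2-5, 58.8% of TRBJ2-7, 56.6% of TRBJ2-1 and 45.4% ± 4.69 of TRBJ2-2 joins. TRBJ2-2 was lowest of the 6 genes in 16 of 17 mice and 11.3 percentage points below TRBJ2-1 (permutation test, adjusted p = 0.00015 over 10 pairs), while the other neighbours were not separated (adjusted p at least 0.0511). Without β5t-KO replicate 2, TRBJ2-7 also lay above TRBJ2-1 by 2.70 points (adjusted p = 0.0028) and TRBJ2-5 above TRBJ2-7 by 0.929 points (adjusted p = 0.00924).

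TRBJ1 clonotypes give the background of this assignment, since TRBD2 lies downstream of TRBJ1. In them TRBD2 was called in 8.09%, and in 6.92% to 8.95% for the single TRBJ1 genes. The D segments are short and alike, gggacagggggc for TRBD1 and gggactgggggggc for TRBD2. When at least 8 D bases had been matched, TRBD2 was called in 69.7% of TRBJ2 and 6.34% of TRBJ1 clonotypes. For TRBJ2-2 this raised the TRBD2 share from below to above that of TRBD1, 55.5% ± 7.77, with TRBD2 the more frequent in 15 of 17 mice. It stayed the lowest of the 6 genes in 16 of 17 mice, and the others averaged 68.4% (TRBJ2-1) to 74.7% (TRBJ2-4). TRBD1 has 12 bases and TRBD2 14, so a minimum of 8 matched bases can favour TRBD2. How far this raised the TRBD2 shares was not tested. Over all TRBJ2 joins, TRBD2 was assigned in 57.5% ± 1.26 for WT mice, 56.8% ± 0.414 for β5i-KO mice, 58.8% ± 1.73 for β5t-KO mice and 59.1% ± 2.59 for BIT mice, with the lowest p for BIT over β5i-KO (exact permutation test, p = 0.0317, adjusted p = 0.159).

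**Figure D4:**
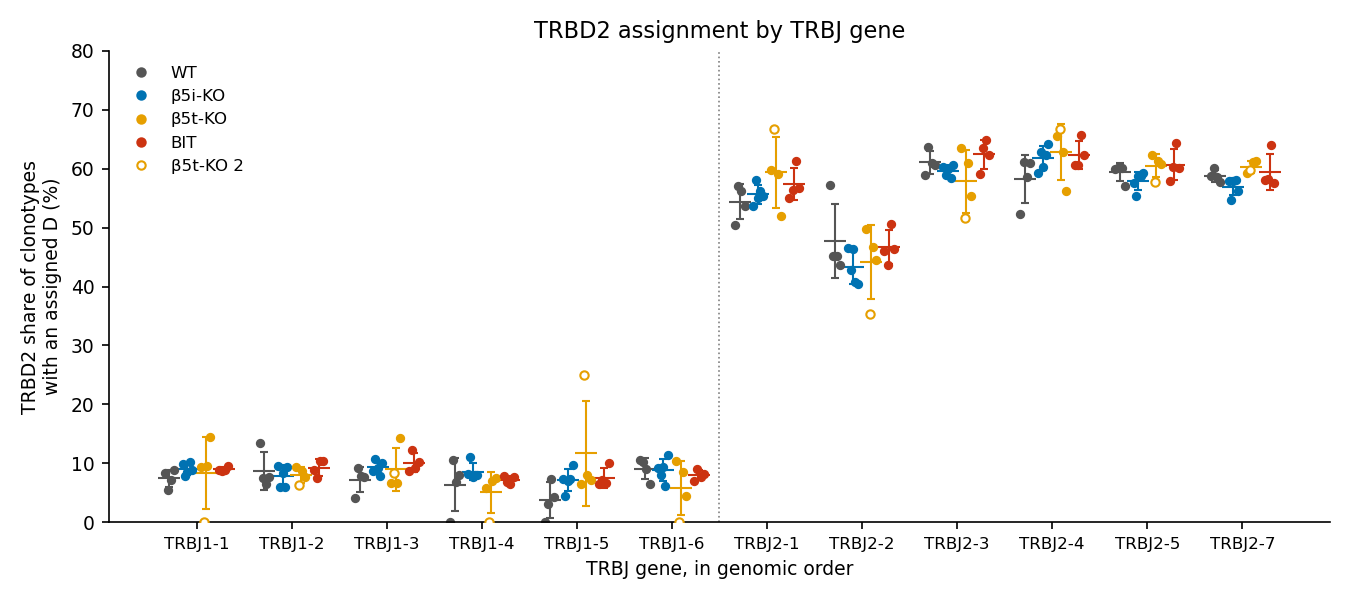
Share of clonotypes with an assigned D segment that was called TRBD2 (%), for each TRBJ gene in genomic order and each mouse by genotype, with group mean and SD and β5t-KO replicate 2 as the open circle; the dotted line separates TRBJ1 from TRBJ2. TRBJ2 genes average 45.4% (TRBJ2-2) to 61.3% (TRBJ2-4), against 6.92% to 8.95% for TRBJ1 genes.

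Compared with TRBJ1 joins of the same mouse, TRBJ2 joins were slightly longer and had lost more J bases. CDR3β length was 0.174 residues greater (13.9 against 13.8, 17 of 17 mice), J trimming was 2.91 against 2.49 bases (17 of 17 mice), and the stretch between V and J was 9.68 against 8.18 bases (17 of 17 mice). Each had an adjusted p of 7e-05 over 7 quantities by permutation tests with sign flips. The identified D part was longer, 8.59 against 7.57 bases (17 of 17 mice, adjusted p = 7e-05). TRBJ2 joins carried 2.47 against 2.41 N bases (16 of 17 mice, adjusted p = 0.00362), which weighting by molecules reduced to a difference of 0.0435 (adjusted p = 0.0776). The D and N values, and the share with no added base below, rest on clonotypes with a D segment. These were 78.7% of TRBJ2 but 67.0% of TRBJ1 nucleotide clonotypes, so the clusters are compared on unlike subsets.

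TRBJ2 clonotypes also held more molecules each, 6.64 ± 5.28 against 6.26 ± 4.79, higher in 16 of 17 mice (permutation test, adjusted p = 0.00028). More cells per clone and more TCRβ RNA per cell cannot be told apart in these bulk libraries. The share of clonotypes with no added base was 18.7% and 19.1% (adjusted p = 0.435), and without β5t-KO replicate 2 the difference was -0.967 points (adjusted p = 0.00439).

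TRBV genes differed in how often they were joined to TRBJ2. Within mice, 17 of the 21 TRBV genes tested (81%) had a TRBJ2 share that differed from that of all other TRBV genes, 9 of them higher and 8 lower (permutation tests with sign flips, adjusted p 0.000168 to 0.0385). TRBV17 had the highest TRBJ2 share, 81.9% ± 3.98 (n = 16 mice), which was 11.8 percentage points above the other TRBV genes and higher in 16 of 16 mice. TRBV30 followed with 79.5% ± 5.09 (13 of 14 mice) and TRBV12-2 with 79.1% ± 3.63 (15 of 15 mice).

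At the other end, TRBV19 was joined to TRBJ2 in 61.0% ± 5.26 of its clonotypes, 10.2 points below the other TRBV genes and lower in 16 of 16 mice. TRBV29 (64.1% ± 4.52) was lower in 16 of 17 mice and TRBV31 (64.2% ± 4.22), which lies downstream of the clusters in the opposite orientation, in 15 of 16. TRBV1, TRBV15, TRBV16 and TRBV23 did not pass the test. TRBV12-2 and TRBV13 genes have close relatives, between which reads may have been split.

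**Figure D5:**
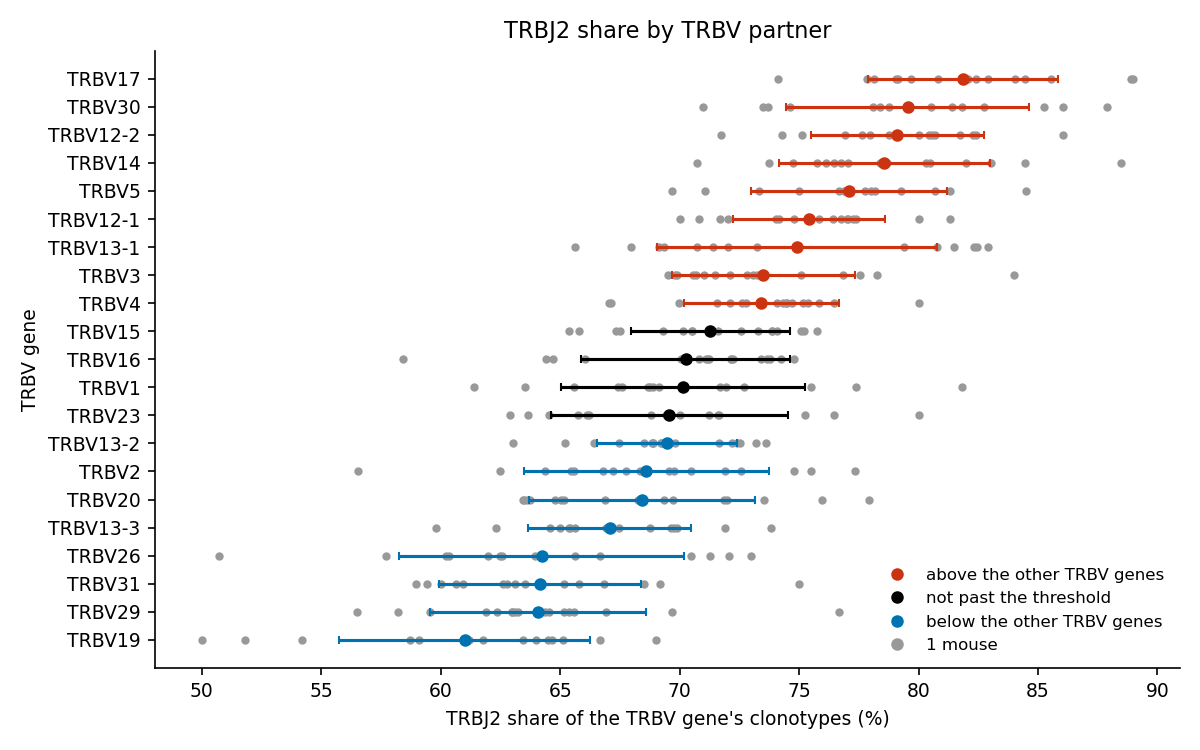
TRBJ2 share of the clonotypes of each TRBV gene (%), with grey points for single mice and coloured points with bars for the mean and SD over mice; red genes lay above and blue genes below the other TRBV genes, and black genes were not past the threshold. Means run from 61.0% for TRBV19 to 81.9% for TRBV17; the axis does not start at 0.

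The same TRBV genes led in every TRBJ2 gene. TRBV16 was the most frequent partner of all 6, from 11.2% ± 2.71 of TRBJ2-1 clonotypes to 14.3% ± 2.69 of TRBJ2-5 clonotypes (SD, n = 17 mice), beside 12.8% of all in-frame clonotypes. TRBV13-2 and TRBV13-3 came next in each, with TRBV13-2 between 8.61% (TRBJ2-2) and 11.9% (TRBJ2-5) and TRBV13-3 between 9.32% (TRBJ2-5) and 10.6% (TRBJ2-2). Each took 10.3% of all in-frame clonotypes. TRBV16, TRBV13-2 and TRBV13-3 also led in TRBJ1-1 to TRBJ1-5, so their lead is not particular to TRBJ2. In TRBJ1-6, TRBV13-3 and TRBV13-2 led without TRBV16.

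No TRBV–TRBJ2 pair passed the test between genotypes. Of 248 TRBV–TRBJ pairs tested, 126 had a TRBJ2 gene, and edgeR called 0% in each of the 5 comparisons, with 7 (β5i-KO over WT), 9 (β5t-KO over WT), 0 (BIT over WT), 4 (BIT over β5i-KO) and 8 (BIT over β5t-KO) TRBJ2 pairs at an unadjusted p under 0.05. Unadjusted counts over all pairs are not given here, so these do not set TRBJ2 pairs apart. In simulated pair counts with 40 pairs changed by 2-fold between BIT and WT, the same fit recovered 26 and made 3 false calls.

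Single nucleotide sequences were seldom shared. Of 174467 distinct TRBJ2 nucleotide clonotypes, 6875 (3.94%) were found in at least 2 of the 17 mice and 15 in at least 9, beside 3.80% in at least 2 mice for TRBJ1. TRBJ2-7 had the highest shared part, 4.98%, and TRBJ2-2 the lowest, 2.45%. These shares also depend on how many clonotypes each gene has.

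The nucleotide CDR3β found in most mice is shown for each gene, because it shows how the most recurrent joins are made. Capitals mark the bases assigned to the J segment, P base included, and sequences run from the cysteine codon to the phenylalanine codon.

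TRBV16–TRBJ2-1: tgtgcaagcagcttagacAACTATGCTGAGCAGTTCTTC
TRBV17–TRBJ2-2: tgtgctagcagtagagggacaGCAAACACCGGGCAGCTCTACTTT
TRBV13-2–TRBJ2-3: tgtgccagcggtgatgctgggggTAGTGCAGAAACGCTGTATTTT
TRBV13-2–TRBJ2-4: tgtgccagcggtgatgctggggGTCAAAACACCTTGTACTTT
TRBV13-3–TRBJ2-5: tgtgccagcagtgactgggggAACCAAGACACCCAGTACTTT
TRBV13-2–TRBJ2-7: tgtgccagcggtgatGAACAGTACTTC

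They were found in 10, 6, 7, 9, 7 and 11 mice, in this order. The TRBJ2-7 join had 9 residues, no assigned D segment and 7 J bases removed, and its V and J parts met directly. The TRBJ2-1 join also had no assigned D segment, with 1 base between V and J. The joins of TRBJ2-2 (TRBD1) and of TRBJ2-3, TRBJ2-4 and TRBJ2-5 (TRBD2) held 0 N bases.

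Recurring CDR3β sequences, those at 10 CPM or more (reads scaled to a common library total) in at least 3 mice of a genotype, numbered 3497, of which 2592 (74.1%) used TRBJ2 in most of their reads. TRBJ2-7 led with 1022 and TRBJ2-2 came last with 119. TRBJ2 made up 215 of the 272 that recurred among WT mice, 1387 of 1916 among β5i-KO mice, 51 of 60 among β5t-KO mice and 1748 of 2268 among BIT mice. The β5t-KO libraries, with the fewest, held 277 to 4726 TRBJ2 clonotypes each. edgeR called 0% of the 3497 in every comparison, with 732 (β5i-KO over WT), 1077 (β5t-KO over WT), 793 (BIT over WT), 370 (BIT over β5i-KO) and 1392 (BIT over β5t-KO) TRBJ2 sequences at an unadjusted p under 0.05. DESeq2 on the same reads called 323 higher and 41 lower, 184 and 786, 317 and 40, 54 and 54, and 1037 and 21, in the same order. The unadjusted and the DESeq2 counts cover TRBJ2 sequences only, 74.1% of the list, and do not set TRBJ2 apart from the rest. Sequences entered the list through the genotypes in which they recurred, so the directions depend on the list and are not read as results. The fitted dispersion of reads per sequence was large (median 9.24), and in simulated BIT and WT reads with that dispersion edgeR recovered 0 of 200 sequences changed by 64-fold, so no single sequence is named.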

How the data were processed

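TCRα and TCRβ libraries of 20 mice were deposited as clone tables, and only the TCRβ tables were used here. Per the labels, a SMARTer kit for mouse TCR a/b profiling made the libraries from total RNA. The authors ran MiXCR, whose version is not given in the sources used here, and the submitters' processing notes name the build mm10. Each row holds a clone with its deposited counts of reads and of unique molecules, its V, D and J alignments and its CDR3. Positions and sequences of segments came from GENCODE M39 on GRCm39, matched by symbol, and J alignments gave the kept J bases.

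Members, lists and tests were chosen with earlier results of these data known. Each mouse was 1 replicate, from individual mice per the labels. Counts were fitted over all TRBJ genes, TRBV–TRBJ pairs (at least 5 clonotypes in at least 4 libraries) or recurring CDR3β sequences with edgeR 4.0.16 (DESeq2 1.42.0 as an alternative), all 4 genotypes in 1 fit without TMM. Means per gene were fitted with limma 3.58.1 in R 4.3.3. Means per mouse were compared by exact permutation and within-mouse differences by sign flips (100000 resamples, or exact up to 16 mice), in Python 3.11.15 with SciPy 1.17.1. TRBV genes needed 20 clonotypes in at least 10 mice. All calls used a Benjamini-Hochberg adjusted p under 0.05. The rule for names took all 6 TRBJ2 genes, the 3 leading TRBV genes of each, the 3 highest and 3 lowest called TRBV partners, called pairs and sequences (there were none) and the gene most alike each TRBJ2 gene. The D bases, the bases between V and J, the most opposed genes, J trimming and TRBD2 by gene, TRBJ2-4 as a gene without overlap and the fits without β5t-KO replicate 2 in within-mouse tests were added after the values were seen. The scripts were tested on simulated data. A clone split by a sequencing error counts as a further clonotype, and a D segment under the aligner's minimum length is not found.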

Additional observations from a re-analysis of the deposited data

Results flagged for a closer look

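In groups of 4 or 5 mice, 5 of 88 tested sets of values had 1 mouse whose gap to its nearest neighbour exceeded Dixon's limit, or 5.68%, and chance gives about 5%. WT replicate 4 had a TRBJ2 share of 73.6% with the nearest WT mouse at 70.5%. BIT replicate 4 had a TRBJ2-4 share of 9.76% with the nearest BIT mouse at 8.85%. β5t-KO replicate 2, the library with the fewest clonotypes, carried 1.51 N bases in TRBJ2-1 joins, from 45 clonotypes with a D segment, and its nearest neighbour 2.20. BIT replicate 2 carried 2.35 N bases in TRBJ2-1 joins with the nearest mouse at 2.44, and WT replicate 1 carried 2.27 in TRBJ2-5 joins with the nearest at 2.45.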

How the results depend on the processing

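Over 175 reported values and 3680 alternatives none reversed, and 3563 stayed on their side of the threshold or within 1.5 times the count. In 168 of all alternatives, a difference that was not called changed sign, and these include ones counted as staying. The cause of the changes below was not tested.

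Labels do not say that replicate numbers mark pairs, and the deviations of same-numbered mice correlated over 0.1 in 15 of 22 pairs for TRBJ genes (mean r 0.254) and 10 of 22 for TRBV–TRBJ pairs (mean r 0.124). Over the 86 pairs of differently numbered mice from different genotypes, mean r was -0.0593 and -0.0251. Replicate 4 held the highest TRBJ2 share in every genotype. What the numbers share was not tested. With the replicate block, the TRBJ2 share of β5i-KO mice differed from WT by -2.39 points (adjusted p = 0.0409 in a linear model, in place of the permutation test) while BIT exceeded β5i-KO by 3.25 points (adjusted p = 0.0147), and N addition by -0.134 bases for β5t-KO against WT and 0.130 for BIT against β5t-KO (adjusted p = 0.0270 each). The block called 1 TRBJ2 gene higher in β5t-KO than WT (TRBJ2-1, edgeR adjusted p = 0.00101) and 2 in BIT than β5i-KO (TRBJ2-1 and TRBJ2-7), 3 TRBV–TRBJ2 pairs higher and 1 lower in BIT than β5t-KO, and 0 genes for N addition in β5t-KO against WT. These counts cover TRBJ2 genes and pairs only. The other calls were within 1.5 times under the block.

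In TRBJ gene usage, β5t-KO against WT gave 1 higher TRBJ2 gene under DESeq2, with only the groups compared and with at least 2 molecules per clonotype, and 1 lower under the last. BIT against β5t-KO gave 0 higher and 0 lower under TMM, DESeq2 and unique molecules. Leaving out 1 mouse at a time gave 0 to 1 lower for β5i-KO against WT (without β5i-KO replicate 4), 0 to 1 higher and 0 to 1 lower for β5t-KO against WT, 0 to 2 higher for BIT against β5i-KO (without β5i-KO replicate 4) and 0 to 1 each way for BIT against β5t-KO. Calls of TRBJ1 genes under these alternatives are not given here, so the counts do not set TRBJ2 genes apart.

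For N addition per gene, weighting by clonotypes gave 2 lower TRBJ2 genes in β5t-KO than WT (TRBJ2-1 and TRBJ2-7, without TRBJ2-2) and 3 higher in BIT than β5t-KO, at least 2 molecules gave 1 higher in the latter, and leaving out 1 mouse gave 0 to 2 in both. Here too TRBJ1 genes are not counted, so TRBJ2 genes are not set apart. Against TRBJ1, the N addition difference weighted by molecules was 0.0435, and that in the share with no added base was -0.967 without β5t-KO replicate 2.

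For recurring CDR3β, DESeq2 called TRBJ2 sequences higher and lower as 323 and 41 (β5i-KO against WT), 184 and 786 (β5t-KO against WT), 317 and 40 (BIT against WT), 54 and 54 (BIT against β5i-KO) and 1037 and 21 (BIT against β5t-KO), and TMM 1412 higher in the last. Sequences entered the list through the genotypes in which they recurred, so the directions of these counts depend on the list. They cover TRBJ2 sequences only and do not set TRBJ2 apart from the rest. Leaving out 1 mouse gave edgeR 0 to 10, 0 to 108, 0 to 64 and 0 to 127 higher for β5i-KO and BIT against WT and BIT against β5i-KO and β5t-KO, and 0 to 7 lower for BIT against β5i-KO, each maximum without BIT replicate 2. Depth limits all values of β5t-KO replicate 2, and no fold of a single sequence can be given.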

Other observations

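The TRBJ2 share was also measured in the 7708 nucleotide clonotypes of the 17 mice whose CDR3β was out of frame or held a stop codon, between 28 and 1317 per mouse. It was 74.2% ± 4.30 there and 70.8% ± 2.30 in the in-frame clonotypes, lower in frame in 14 of 17 mice by 3.41 percentage points (permutation test with sign flips, two-sided, p = 0.00034). The in-frame share counts amino acid clonotypes, so the sides are counted in unlike units. This comparison was chosen after the values were seen.

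Along the locus, the distance of a TRBV gene from TRBD1 and its TRBJ2 share ran weakly together over the 20 TRBV genes upstream (Spearman's rho 0.226, Pearson's r 0.144), given as a description without a test.

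The constant gene was called TRBC2 for 99.95% of TRBJ2 and 99.94% of TRBJ1 clones, so the constant call in these libraries did not tell the clusters apart.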
